A study of Mus musculus with 11 samples.

Results

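Endosomal Toll-like receptors (TLRs) and the proteins that carry them and transmit their signal were followed in the skin and small intestine of mice treated on the skin with imiquimod (IMQ). The 10 genes were taken by their symbol from a table of 45777 genes and all 10 were found: the receptors *Tlr3*, *Tlr7*, *Tlr8*, *Tlr9*, *Tlr11*, *Tlr12* and *Tlr13*, the chaperone *Unc93b1*, the adaptor *Myd88* and the transcription factor *Irf5*. All were BALB/c mice, female or male, that were shaved and treated at 8 to 10 weeks of age with 62.5 mg of cream per day for 5 to 8 days. Control mice received Vaseline as vehicle and IMQ mice received Aldara, a cream with 5% IMQ, so both groups had cream on shaved skin but not the same cream base. RNA sequencing gave 3 control and 3 IMQ libraries of skin (replicates 1 to 3 and 4 to 6) and, of small intestine, 3 from control mice and 2 from IMQ mice (replicates 7 to 9 and 10 to 11), each counted as 1 sample. The sources used here do not say which tissues came from the same mouse, nor whether any mice were pooled, so the p-values measure the spread between these libraries.

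Endosomal TLRs sit in the membrane of endosomes and bind nucleic acids or microbial proteins that a cell has taken up. TLR7 and TLR8 bind single-stranded RNA fragments and nucleosides, and IMQ is a small-molecule ligand of TLR7. TLR9 binds unmethylated CpG DNA, TLR3 double-stranded RNA, TLR13 bacterial ribosomal RNA, and TLR11 and TLR12 profilin of apicomplexan parasites. UNC93B1 moves these receptors from the endoplasmic reticulum to endosomes, where proteases cleave several of them. All of them except TLR3 signal through MyD88, and IRF5 is one of the transcription factors activated downstream, which drives inflammatory cytokines and type I interferon.

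The libraries held between 44995414 and 58526384 counts, and the labelled tissues matched their markers. The summed level of 5 keratinocyte markers was 4944 to 13576 FPKM (fragments per kilobase of transcript, scaled to library size) in skin and at most 1.42 in small intestine, where *Krt5* and *Krt14* were listed at 0 in both IMQ libraries. Skin control replicate 2 stood apart. Its 5 intestinal epithelium markers summed to 107 FPKM, against at most 2.94 in the other skin libraries. Its 5 hair follicle markers summed to 0.848 FPKM, against 469 and 807 in the other 2 skin controls and 0.481 to 0.763 in IMQ skin. For the endosomal receptors, *Unc93b1*, *Myd88* and *Irf5*, skin results are therefore also given without this library wherever that changed a call or a direction. For the other genes of the pathway only the number called without it is given. For the cell markers no result without it is given, so their skin results may depend on this library.

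The genes lie on 7 chromosomes (mm10). *Tlr8* (chrX:167241123-167264329) and *Tlr7* (chrX:167303380-167330574) are neighbours on the minus strand with 39050 bases between them, and *Tlr13* (chrX:106143275-106160493) is on the same chromosome. *Tlr9* (chr9:106222598-106226876) and *Myd88* (chr9:119335934-119340018) share chromosome 9. The others are *Tlr3* (chr8:45395665-45411075), *Tlr11* (chr14:50357914-50363663), *Tlr12* (chr4:128615446-128618619), *Unc93b1* (chr19:3935158-3949340) and *Irf5* (chr6:29526130-29541869). Exons of *Tlr3*, *Myd88* and *Irf5* overlap exons of *Gm45542*, *Acaa1a* and *Tnpo3* on the opposite strand, and how strand was treated in counting is not given in the sources used here. Reads of these 3 genes and their partners may therefore be mixed.

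The 250 bases before the gene start listed in the promoter table of RefSeq (GRCm38.p6) were searched on both strands for 3 short motifs, because several of these genes moved together. The motifs were GAGGAA, the core of the site of PU.1, a transcription factor of myeloid and B cells, the interferon-stimulated response element (GAAA, any 2 bases, GAAA), and TTCNNNGAA, a STAT site. Entries were found for 8 of the 10 genes, not for *Tlr7* and *Unc93b1*, and all 250 bases of each entry were searched. The listed starts of *Tlr3* and *Irf5* lie inside the gene spans given above, and the window of *Tlr3* overlaps annotated exons of *Tlr3* and *Gm45542*. GAGGAA occurred before 4 of the 8 (*Tlr8*, *Tlr9*, *Tlr11* and *Tlr13*), and 23.25% of the 32851 promoters of the same window held it. The interferon-stimulated response element occurred before *Tlr11* and *Myd88* (2.98% of promoters), and TTCNNNGAA before *Tlr8* and *Myd88* (7.02%). In *Myd88* the 2 matches overlap. *Irf5*, which rose in small intestine, held no match to the 3 motifs and is not printed. Printed are the sequences before *Tlr8*, *Tlr9*, *Tlr13* and *Myd88*, which rose in at least 1 tissue and held a match. They run 5′ to 3′ on the strand of the gene, with motif matches in capitals. As printed, those of *Tlr13* and *Myd88* are shortened to leave out annotated exons.
*Tlr8*, chrX:167264330-167264579 (minus strand): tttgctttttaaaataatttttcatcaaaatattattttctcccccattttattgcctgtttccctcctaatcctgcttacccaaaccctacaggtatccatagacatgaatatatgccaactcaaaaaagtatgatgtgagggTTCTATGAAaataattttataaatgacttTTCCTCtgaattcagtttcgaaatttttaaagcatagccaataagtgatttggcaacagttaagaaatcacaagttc
*Tlr9*, chr9:106222348-106222597 (plus strand): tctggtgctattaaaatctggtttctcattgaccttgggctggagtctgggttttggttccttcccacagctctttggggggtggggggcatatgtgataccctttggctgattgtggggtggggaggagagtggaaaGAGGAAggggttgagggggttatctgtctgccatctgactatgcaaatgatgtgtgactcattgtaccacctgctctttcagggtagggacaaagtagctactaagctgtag
*Tlr13*, chrX:106143025-106143203 (plus strand): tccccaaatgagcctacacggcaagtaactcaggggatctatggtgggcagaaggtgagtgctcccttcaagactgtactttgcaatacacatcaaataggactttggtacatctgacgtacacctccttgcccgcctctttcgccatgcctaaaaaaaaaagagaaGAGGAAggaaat
*Myd88*, chr9:119340042-119340268 (minus strand): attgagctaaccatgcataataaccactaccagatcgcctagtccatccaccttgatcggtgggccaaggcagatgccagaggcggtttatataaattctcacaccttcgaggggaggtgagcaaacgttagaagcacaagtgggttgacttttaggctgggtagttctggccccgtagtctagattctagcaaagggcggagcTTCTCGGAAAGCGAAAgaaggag
A match of letters is not a measured binding site.

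In vehicle-treated mice, the sum of the 7 receptors was lower in skin (10.5 ± 2.75 FPKM, SD, n = 3) than in small intestine (18.7 ± 0.819, n = 3), and the make-up differed. FPKM is per transcript length, so levels of different genes, and the shares made from them, can be set beside each other within a library. The sums of skin and small intestine also depend on the scaling between tissues, which is described below. *Tlr3* was 52.4% ± 6.66 of the sum in small intestine and 27.7% ± 5.92 in skin. *Tlr8* was 2.52% ± 0.432 of the sum in small intestine, where it had the lowest level of the 10 genes, and 16.6% ± 3.27 in skin. *Tlr12* was 18.9% ± 4.21 in small intestine and 1.15% ± 0.348 in skin, where it had the lowest level.

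In skin controls, *Unc93b1* (19.7 ± 3.22 FPKM) and *Myd88* (18.8 ± 0.856) had overlapping levels, followed by *Irf5* at 13.4 ± 1.42. The levels of *Tlr3*, *Tlr11*, *Tlr8*, *Tlr7*, *Tlr9* and *Tlr13* then ran from 2.81 ± 0.377 down to 0.983 ± 0.244, and each overlapped its neighbour in that order. *Tlr12* lay apart at 0.115 ± 0.0166 FPKM. In small intestine controls the order was *Unc93b1* (28.0 ± 2.31), *Myd88* (15.2 ± 0.800), *Tlr3* (9.81 ± 1.53), *Irf5* (3.84 ± 0.121) and *Tlr12* (3.52 ± 0.732), of which only *Irf5* and *Tlr12* overlapped. *Tlr13* followed at 2.03 ± 0.194, the ranges of *Tlr11*, *Tlr7* and *Tlr9* overlapped between 1.03 and 0.901 on average, and *Tlr8* was at 0.468 ± 0.0620.

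**Figure D1:**
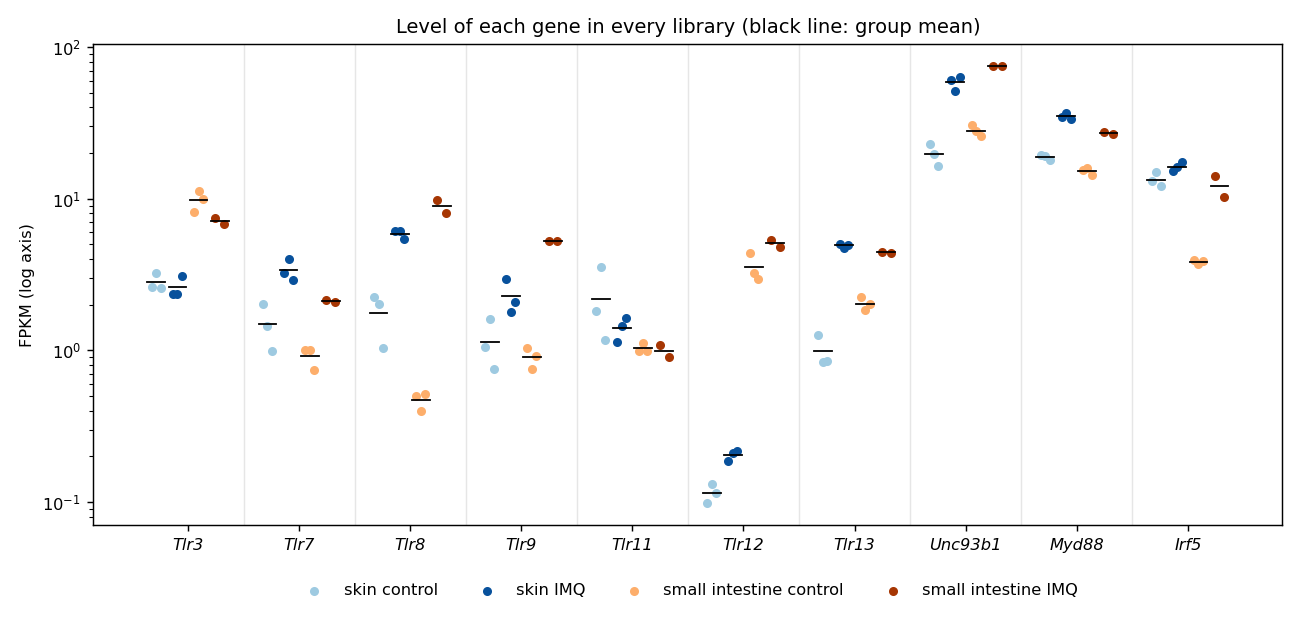
Level of the 10 genes in every library, in FPKM on a log axis. Points are libraries, black lines are group means, and colours are skin control (n = 3), skin IMQ (n = 3), small intestine control (n = 3) and small intestine IMQ (n = 2). *Tlr8* in small intestine sits between 0.397 and 0.512 in the controls and at 9.85 and 8.00 with IMQ.

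The small intestine and skin of control mice were compared gene by gene with edgeR's quasi-likelihood test with p-values adjusted by Benjamini-Hochberg, and a gene is called here when its adjusted p was under 0.05. Of the 10 genes, 4 were higher and 2 lower in small intestine, in a comparison in which 51.9% of all genes were called (26.2% higher and 25.7% lower). *Tlr12* differed by 5.37 ± 0.29 (log2 fold change ± SE; edgeR adjusted p = 9.03e-06), with 18 to 22 counts per library in skin and 557 to 748 in small intestine. *Tlr3* differed by 2.25 ± 0.18 (4.00e-05), *Tlr13* by 1.51 ± 0.23 (0.00108) and *Unc93b1* by 0.96 ± 0.16 (0.00181), all by edgeR's adjusted p. *Tlr8* was lower in small intestine by a log2 fold change of -1.47 ± 0.34 (edgeR adjusted p = 0.00828) and *Irf5* by -1.34 ± 0.17 (3.89e-04). *Tlr7* (-0.25 ± 0.29), *Tlr9* (0.10 ± 0.36), *Tlr11* (-0.66 ± 0.43) and *Myd88* (0.14 ± 0.12) were not called, and the 2 groups overlapped for these 4 genes only, while 31.6% of all genes were higher and 30.6% lower without overlap. *Tlr11* was called lower without skin control replicate 3 (-1.01, edgeR adjusted p = 0.0485). This comparison depends on the scaling between tissues. On log2(FPKM + 0.01) and log2(FPKM + 1) the median of all genes moved from -0.0025 to -0.45 and -0.23, and the share of calls that were higher in small intestine moved from 50.5% to 28.7% and 28.8%. The 6 genes called kept their direction and call on both, with *Tlr12* at 4.81 and 2.01, *Tlr13* at 1.06 and 0.62, *Unc93b1* at 0.52 and 0.49 and *Tlr8* at -1.83 and -0.89, whereas *Myd88* turned to lower in small intestine (-0.31 and -0.29, limma adjusted p = 0.0482 and 0.0335) and *Tlr9* to a negative value that was not called.

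In skin, IMQ was followed by higher *Tlr13*, *Tlr8*, *Unc93b1*, *Tlr7* and *Myd88*. These 5 of the 10 genes passed the test as higher and 0 as lower, against 6.74% of all genes called (4.05% higher and 2.69% lower). The median log2 fold change was 0.99 over the 10 genes and -0.01 over all genes tested. In small intestine, 7 of the 10 passed as higher and 0 as lower: the same 5 genes, *Tlr9* and *Irf5*. There 2.95% of all genes were called (2.77% higher and 0.17% lower), the median over the 10 genes was 1.18 and that over all genes -0.02. At an unadjusted p under 0.05, 8 genes were higher and 0 lower in skin, and 8 were higher and 1 lower (*Tlr3*) in small intestine. The share of all genes at that unadjusted p is not given here, for these counts or for those below. DESeq2 called 6 higher in skin, 7 higher in small intestine and 0 lower in both. Of all genes it called 1514 higher and 1516 lower of 20512 in skin, and 1006 higher and 200 lower of 19965 in small intestine. Counts by DESeq2 below are to be read against these. Without skin control replicate 2, edgeR called 6 in skin, in a fit that called 2521 of 20752 genes, against 1382 of 20512 with all libraries. The IMQ and control libraries did not overlap for 8 genes with higher values in skin (15.1% of all genes, with 13.3% lower), and for 8 with higher values (15.1%) and 1 with lower values (13.9%) in small intestine. In bulk tissue, fewer or more cells of a type and less or more RNA per cell cannot be told apart.

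**Figure D2:**
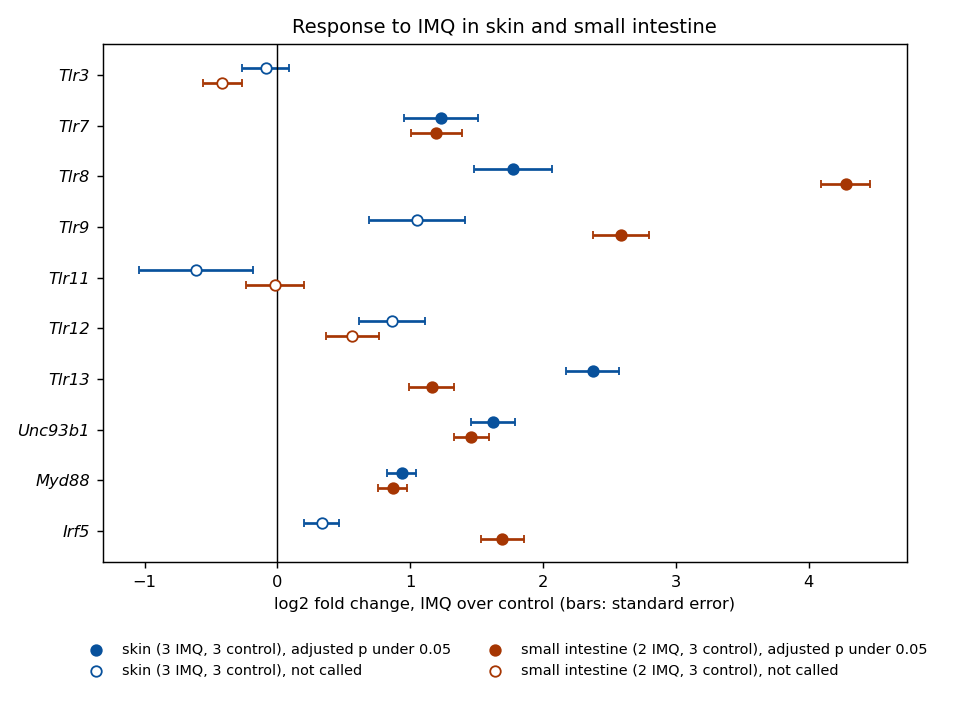
Log2 fold change of IMQ over control for the 10 genes in skin (blue, 3 against 3 libraries) and small intestine (brown, 2 against 3 libraries), with bars of 1 standard error. Filled points have an edgeR adjusted p under 0.05. The tissues lie farthest apart at *Tlr8* (1.77 and 4.28), *Tlr9* (1.05 and 2.58), *Irf5* (0.33 and 1.69) and *Tlr13* (2.37 and 1.16).

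*Tlr7*, the receptor of the applied ligand, had normalized counts of 453, 339 and 221 in skin controls and 793, 919 and 671 in IMQ skin. Normalized counts compare libraries within a tissue. All IMQ libraries were above all controls, and the log2 fold change was 1.23 ± 0.28 (SE; edgeR adjusted p = 0.0482). In small intestine the controls had 247, 221 and 206 and the IMQ libraries 499 and 531, again without overlap, a log2 fold change of 1.20 ± 0.19 (edgeR adjusted p = 0.0185). The change differed between the tissues by -0.03 ± 0.36 (small intestine minus skin), which was not called (edgeR adjusted p = 0.981). The call of *Tlr7* was the least stable. In skin it was lost whichever of the 6 libraries was left out (log2 fold change 0.996 to 1.50, edgeR adjusted p = 0.0632 to 0.181), and in small intestine without replicate 8, 9, 10 or 11 (1.14 to 1.25, edgeR adjusted p = 0.0664 to 0.139). In skin it was also lost in 3 of 7 other settings: no filter (edgeR adjusted p = 0.0609) and limma on log2(FPKM + 0.01) and log2(FPKM + 1) (limma adjusted p = 0.0637 and 0.0715, value 0.82 with the last). In small intestine it was lost with limma on the same scales (limma adjusted p = 0.0884 and 0.0568, value 0.70 with the last).

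*Tlr8*, the neighbour of *Tlr7*, had normalized counts of 581, 566 and 267 in skin controls and 1733, 1656 and 1442 in IMQ skin. Its log2 fold change was 1.77 ± 0.30 (edgeR adjusted p = 0.0211). In small intestine the controls had 143, 109.9 and 152 and the IMQ libraries 2809.6 and 2444. Every IMQ library lay far above every control, with a log2 fold change of 4.28 ± 0.18 (edgeR adjusted p = 1.37e-04), which placed *Tlr8* at position 22 of 19965 genes in order of rise. The rise was larger in small intestine by 2.51 ± 0.39 on the log2 scale (interaction term, edgeR adjusted p = 0.00903), in a test that called 2.55% of all genes. This difference was called whichever of the 11 libraries was left out. In skin the call was lost without control replicate 1 or IMQ replicate 4, 5 or 6 (log2 fold change 1.72 to 1.95, edgeR adjusted p = 0.0532 to 0.0873).

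*Tlr9*, the receptor of CpG DNA, had normalized counts of 190.0, 315 and 134 in skin controls and 590.1, 344 and 389 in IMQ skin. The groups did not overlap, but the log2 fold change of 1.05 ± 0.36 did not pass the test (edgeR adjusted p = 0.144). Without skin control replicate 2, the highest control and the library with intestinal transcripts, it was 1.45 (edgeR adjusted p = 0.0381). In small intestine the controls had 212, 142 and 192 and the IMQ libraries 1050.3 and 1133, a log2 fold change of 2.58 ± 0.21 (edgeR adjusted p = 8.48e-04). The difference between the tissues of 1.55 ± 0.47 was not called (edgeR adjusted p = 0.124). DESeq2 called *Tlr9* in skin (DESeq2 adjusted p = 0.0345) and in the difference between the tissues (DESeq2 adjusted p = 0.0269).

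*Tlr13* had normalized counts of 266, 189.7 and 175 in skin controls and 1161, 1043 and 1067 in IMQ skin, the largest rise of the 10 genes in skin (log2 fold change 2.37 ± 0.20, edgeR adjusted p = 0.00262). In small intestine the controls, at 526, 403 and 491, were followed by 1029 and 1089 with IMQ. The groups did not overlap there either, and the log2 fold change was 1.16 ± 0.17 (edgeR adjusted p = 0.0126). The difference between the tissues, small intestine minus skin, was -1.21 ± 0.26 on the log2 scale (interaction, edgeR adjusted p = 0.0397), opposite in sign to that of *Tlr8*. This difference was lost without skin replicate 3, 4, 5 or 6 or small intestine replicate 7, 9, 10 or 11 (-1.07 to -1.27, edgeR adjusted p = 0.0554 to 0.162), and with 4 of the 6 other settings, which were filterByExpr, no filter and limma with either pseudocount, 0.01 or 1 (adjusted p = 0.0533 to 0.0695 in these, value -0.74 with the last). The call in small intestine was lost without replicate 9, 10 or 11 (1.12 to 1.21, edgeR adjusted p = 0.0556 to 0.104).

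*Tlr3*, *Tlr12* and *Tlr11* did not pass the test in either tissue. *Tlr3*, which uses the adaptor TRIF in place of MyD88, had a log2 fold change of -0.09 ± 0.18 in skin (edgeR adjusted p = 0.812), with 0.052 and no call without control replicate 2, and -0.41 ± 0.14 in small intestine (edgeR adjusted p = 0.268). Its normalized counts in small intestine were 2168, 2764 and 2702 in controls and 1928 and 1893 with IMQ, lower without overlap. *Tlr12* had a log2 fold change of 0.86 ± 0.25 in skin (edgeR adjusted p = 0.0912), at 18 to 22 counts in controls and 31 to 36 with IMQ, and 0.57 ± 0.20 in small intestine (edgeR adjusted p = 0.281). *Tlr11* had normalized counts of 304, 642 and 194 in skin controls and 208, 255 and 282 in IMQ skin, with overlap (log2 fold change -0.61 ± 0.43, edgeR adjusted p = 0.449). The high control is replicate 2, and without it the log2 fold change was -0.00070 (edgeR adjusted p = 0.999). The level of *Tlr11* in that library, 3.56 FPKM, was above the 0.982 to 1.12 FPKM of the small intestine controls. In small intestine *Tlr11* was at 185 to 197 in controls and 179.6 and 198 with IMQ (log2 fold change -0.02 ± 0.22).

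The chaperone *Unc93b1* had the highest level of the 10 genes in each group on average. Its normalized counts were 2709.9, 2508 and 1913 in skin controls and 7882, 6434 and 7673 in IMQ skin. In small intestine they were 4033, 3436 and 3523 in controls and 9633 and 10516 with IMQ. No IMQ library overlapped a control in either tissue. The log2 fold change was 1.62 ± 0.16 in skin (edgeR adjusted p = 0.00445) and 1.46 ± 0.13 in small intestine (edgeR adjusted p = 0.00139), and the difference of -0.16 ± 0.22 was not called (edgeR adjusted p = 0.791). Both calls held whichever library was left out.

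The adaptor *Myd88* had normalized counts of 1965, 2095 and 1787 in skin controls and 3836, 3895 and 3458 in IMQ skin (log2 fold change 0.94 ± 0.11, edgeR adjusted p = 0.00719). In small intestine it had 1746, 1683 and 1678 in controls and 3034 and 3182 with IMQ (0.87 ± 0.11, edgeR adjusted p = 0.00607). The groups did not overlap in either tissue, and the changes differed by -0.06 ± 0.16 (edgeR adjusted p = 0.905). The call in small intestine was lost with either IMQ library left out (0.83 and 0.91, edgeR adjusted p = 0.0740 and 0.0531). *Irf5* had normalized counts of 1492, 1835 and 1376 in skin controls and 1922, 1963 and 2037 in IMQ skin. The IMQ libraries were just above the controls, and the log2 fold change of 0.33 ± 0.13 did not pass the test (edgeR adjusted p = 0.195) except without control replicate 2 (0.46, edgeR adjusted p = 0.0354). In small intestine the controls had 511, 449 and 509 and the IMQ libraries 1766 and 1397, a log2 fold change of 1.69 ± 0.16 (edgeR adjusted p = 0.00165). The rise was larger in small intestine by 1.37 ± 0.21 (interaction, edgeR adjusted p = 0.00927). The interaction was not called without IMQ replicate 10 (1.20, edgeR adjusted p = 0.0532).

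Of the 10 genes, the response passed the test of a difference between tissues for *Tlr8* and *Irf5*, which rose more in small intestine, and *Tlr13*, which rose more in skin (1.7% and 0.856% of all genes were called in these directions). The other 7 were not called in that test by edgeR, and DESeq2 added *Tlr9*.

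With IMQ the make-up of the receptors differed from that of the controls in both tissues, and the order of the genes with it. The sum of the 7 receptors was 20.6 ± 0.364 FPKM in IMQ skin and 33.9 ± 2.38 (n = 2) in IMQ small intestine, above the controls without overlap. The share of *Tlr8* was 28.4% ± 1.58 in IMQ skin and 26.2% ± 2.03 in IMQ small intestine, against 16.6% and 2.52% in the controls. The share of *Tlr3* was 12.6% ± 2.27 in IMQ skin and 21.1% ± 0.0527 in IMQ small intestine, below the controls without overlap. *Tlr8* thereby went from position 6 to position 4 of the 10 genes in skin and from 10 to 4 in small intestine. The ratio of *Tlr8* to *Tlr7* was 1.05 to 1.40 in skin controls and 1.53 to 1.90 in IMQ skin, and 0.397 to 0.686 in small intestine controls and 3.85 to 4.61 with IMQ. The ratio of *Tlr13* to *Tlr8* overlapped in skin (0.413 to 0.814 and 0.776 to 0.918) and was 3.96 to 4.64 in small intestine controls and 0.454 to 0.548 with IMQ. *Irf5* relative to *Myd88* differed in opposite directions, being 0.669 to 0.776 in skin controls against 0.440 to 0.521 in IMQ skin, and 0.233 to 0.269 in small intestine controls against 0.387 to 0.513 with IMQ. These shares and ratios were not tested, since 3 against 3 or 3 against 2 libraries allow no exact permutation p under 0.1.

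**Figure D3:**
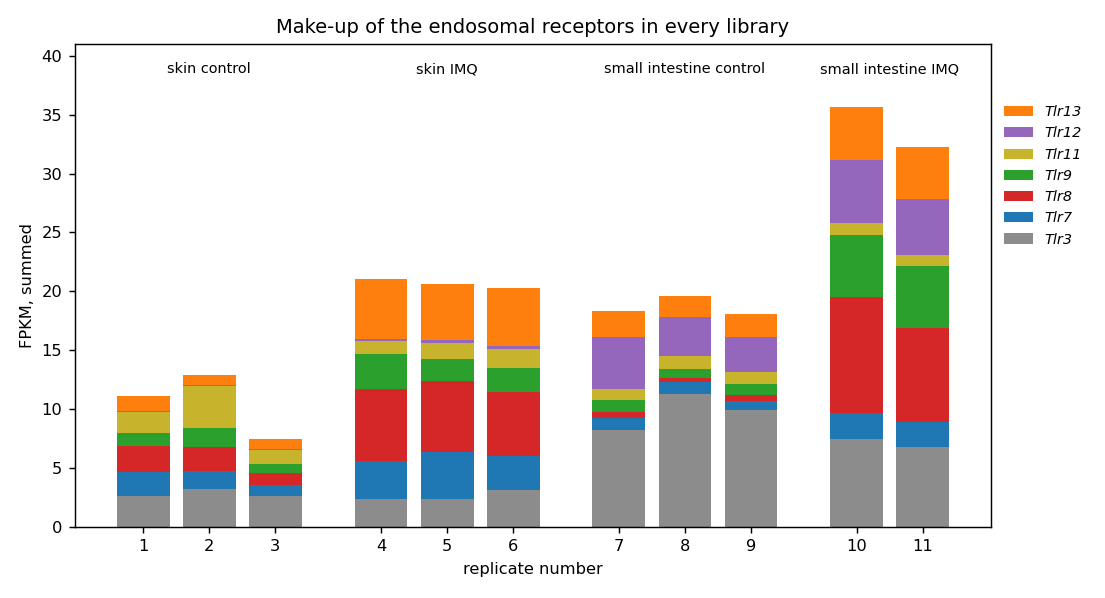
Stacked FPKM of the 7 endosomal receptors in each of the 11 libraries, one bar a library, grouped by tissue and treatment. *Tlr3* makes up 44.9% to 57.4% of the bar in small intestine controls, and the segment of *Tlr8* is 2.02% to 2.83% of the bar there and 24.8% to 27.7% with IMQ.

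The other genes of the pathway were taken from lists of 89 genes by role, of which 84 were tested in skin and 81 in small intestine. In skin 19 were higher and 1 was lower with IMQ, and in small intestine 13 were higher and 0 lower by edgeR, with 0 lower also at an unadjusted p under 0.05 and by DESeq2. Of all genes, 4.05% were called higher and 2.69% lower in skin, and 2.77% higher and 0.17% lower in small intestine, and the counts by role are to be read against these shares. The median log2 fold change was 0.29 in each tissue, against -0.01 in skin and -0.02 in small intestine over all genes. The 10 genes called in both tissues were 50% of those called in skin and 76.9% of those called in small intestine. In skin the count was 7, 10 and 5 without control replicate 1, IMQ replicate 4 and IMQ replicate 5, and 29 without control replicate 2. Over all genes these fits called 325, 468, 258 and 2521 in that order, against 1382 with all libraries.

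Among 19 genes of trafficking and processing tested in skin (18 in small intestine), 4 rose and 1 fell in skin, and 4 rose in small intestine. *Slc15a3*, an endolysosomal transporter of histidine and muramyl dipeptide, rose by 1.65 ± 0.18 in skin and 2.70 ± 0.27 in small intestine (log2 fold change ± SE). Of the endolysosomal proteases, *Lgmn* rose by 1.16 and 1.15 and *Ctss* by 1.01 and 0.92, in skin and small intestine respectively. *Ctsl* rose by 1.84 in small intestine, with 0.46 in skin that was not called, and this difference passed the interaction test (1.39 ± 0.25, edgeR adjusted p = 0.0174). *Cd14*, a co-receptor, rose in skin (2.14), and *Sntb1* fell (-1.04). In small intestine *Cd14* had 1.25 (edgeR adjusted p = 0.0752) and was called by DESeq2 (DESeq2 adjusted p = 0.00128).

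Among 10 genes of ligand supply and nucleases tested in each tissue, 3 rose in skin and 4 in small intestine. *Pld4*, an endolysosomal exonuclease that degrades single-stranded nucleic acids, rose by 1.94 ± 0.17 and 3.13 ± 0.21. *Fcgr4* and *Fcgr1*, receptors that take up immune complexes, rose by 3.43 and 1.65 in skin and by 5.36 and 1.46 in small intestine. *Dnase2a*, the lysosomal DNase, rose in small intestine (1.76 ± 0.19), with -0.26 in skin that was not called (interaction 2.02 ± 0.22, edgeR adjusted p = 0.00135).

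Of 21 adaptors and kinases, 2 rose in each tissue, against 4.05% and 2.77% of all genes. *Irak3*, a kinase-dead member of the IRAK family that restrains MyD88 signalling, rose by 0.81 ± 0.14 in skin and 2.32 ± 0.18 in small intestine, a difference that passed the interaction test (1.53 ± 0.21, edgeR adjusted p = 0.00523). *Irak4*, the first kinase recruited by MyD88, rose in skin (0.85), and *Btk*, a kinase of B and myeloid cells, in small intestine (1.58). In skin *Btk* had 1.11 (edgeR adjusted p = 0.0517) and was called by DESeq2 (DESeq2 adjusted p = 0.00101). Its difference between the tissues was not called (interaction 0.48, edgeR adjusted p = 0.575), nor was that of *Irak4* (-0.50, edgeR adjusted p = 0.303). Of 10 transcription factors, *Nfkb1* (0.63) and *Atf3* (1.98) rose in skin and 0 passed in small intestine by edgeR (4 higher at an unadjusted p under 0.05, and 1 by DESeq2). Of the 10 genes listed as negative regulators, 0 were called by edgeR in either tissue. *Irak3*, which rose in both, was listed with the adaptors and kinases and is not among these 10. At an unadjusted p under 0.05, 4 were higher and 1 lower in skin and 3 were higher in small intestine, and DESeq2 called 4 higher and 1 lower in skin and 2 higher in small intestine. Of the output cytokines, 4 of 9 tested rose in skin, *Il1b* (2.84), *Il6* (2.41), *Ccl3* (2.91) and *Ccl4* (3.49), and 2 of 7 in small intestine, *Il1b* (3.16) and *Ccl3* (3.13). *Ccl4* (2.66, edgeR adjusted p = 0.0708) and *Tnf* (1.91, edgeR adjusted p = 0.0772) were called in small intestine by DESeq2 but not by edgeR. Of the 5 surface receptors, which bind bacterial lipids and proteins outside the cell, *Tlr1* (2.19), *Tlr2* (1.15), *Tlr6* (1.12) and *Tlr4* (0.83) rose in skin. In small intestine only *Tlr1* passed by edgeR (1.07), and its difference between the tissues was -1.11 ± 0.24 (interaction, edgeR adjusted p = 0.0397). *Tlr4* had 1.14 there (edgeR adjusted p = 0.0606) and was called by DESeq2.

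**Figure D4:**
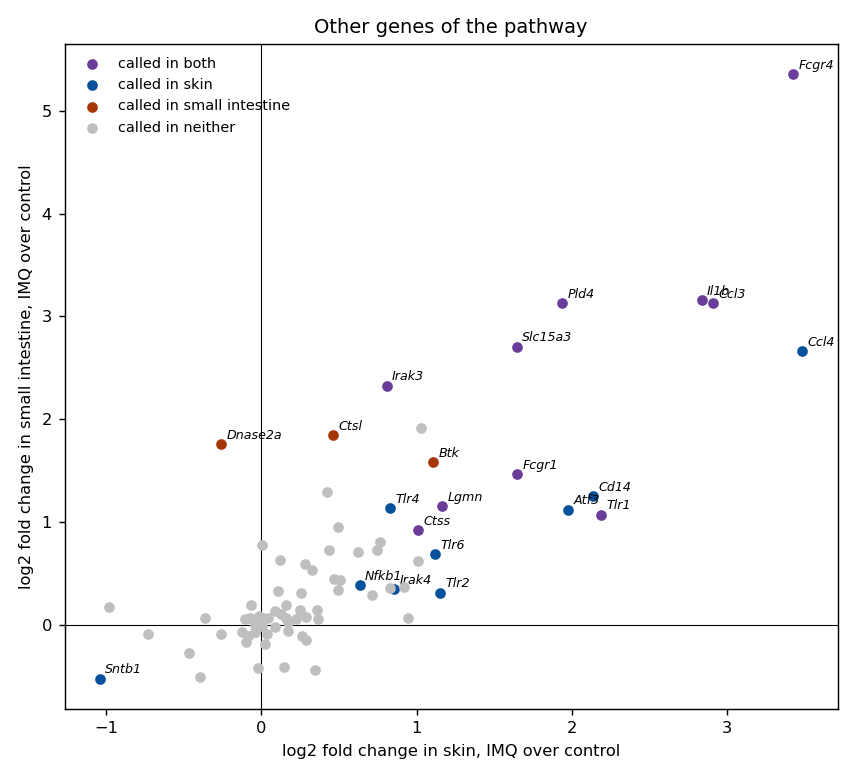
Log2 fold change of IMQ over control in skin (horizontal) and small intestine (vertical) for the 81 other pathway genes tested in both tissues. Colours show in which tissue the edgeR adjusted p was under 0.05, and called genes are named. *Fcgr4* (3.43 and 5.36), *Il1b*, *Ccl3*, *Pld4* and *Slc15a3* lie toward the upper right.

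Some markers of cells that carry endosomal TLRs were also called. In skin 3 of 7 macrophage markers rose (*Adgre1* 2.88, *C1qa* 1.40 and *Fcgr1* 1.65), and the sum of all 7 was 141 to 225 FPKM in controls and 352 to 468 with IMQ. In small intestine 4 of 7 rose (*Adgre1* 2.16, *C1qa* 2.04, *Fcgr1* 1.46 and *Cd68* 2.54), and the sum was 90.8 to 125 in controls and 303 to 341 with IMQ. *Csf1r*, a defining macrophage receptor, was not called in either tissue (0.40 and 0.38), nor by edgeR was *Mertk*, a receptor for apoptotic cells (-0.36 in skin and 0.57 in small intestine). DESeq2 called *Mertk* higher in small intestine (DESeq2 adjusted p = 0.0107) and *Cd68* higher in skin (0.57, DESeq2 adjusted p = 0.0449). The difference between the tissues passed the interaction test for *Mertk* (0.93 ± 0.17, edgeR adjusted p = 0.0184) and *Cd68* (1.97 ± 0.29, edgeR adjusted p = 0.00667). The part of these markers in the change of *Tlr8*, *Tlr13* and the other genes was not tested.

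All 5 neutrophil markers tested rose in skin, and the sum of the list was 13.5 to 14.5 FPKM in controls and 7034 to 8586 with IMQ, mostly *S100a8* and *S100a9*, which inflamed keratinocytes also express. In small intestine the sum was 7.15 to 8.10 in controls and 14.8 to 15.5 with IMQ. There 1 of 4 tested was called (*Csf3r*, 3.21). *S100a9* (2.24), *Cxcr2* (-0.25) and *Retnlg* (-0.07) were not called, and *Ly6g* was listed at 0 in both IMQ libraries. Of the monocyte markers, *Itgam* rose in both tissues (2.94 and 1.88) and the other 4 were not called by edgeR. In skin DESeq2 also called *Ccr2* (0.87, DESeq2 adjusted p = 0.00577) and *Cx3cr1* (0.92, DESeq2 adjusted p = 0.0460) higher. The sums of this list in skin were 54.0 to 69.4 FPKM in controls and 99.4 to 147 with IMQ. In small intestine they were 1095 to 1251 in controls and 1151 to 1228 with IMQ. These sums do not compare the tissues, because the genes of the list differed in both directions between small intestine and skin controls. By log2 fold change *Plac8* (6.65) and *Cx3cr1* (2.94) were higher in small intestine, *Ccr2* (-2.62) was lower, and *Ly6c2* and *Itgam* were not called. The part of these lists in the results was not tested.

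Of the plasmacytoid dendritic cell markers, cells known for high TLR7 and TLR9, 1 of 6 rose in each tissue (*Clec12a*, which other myeloid cells also express), and *Siglech* was not called by edgeR (-0.56 in skin and -1.39 in small intestine). In small intestine DESeq2 called *Siglech* lower (DESeq2 adjusted p = 0.0335). Their sums were 77.1 to 109 and 70.2 to 135 FPKM in skin and 28.6 to 30.9 and 34.9 to 37.4 in small intestine, for controls and IMQ. Of the conventional dendritic cell markers, *Itgax* (2.82) and *Xcr1* (1.15) rose in small intestine, with sums of 9.79 to 11.6 in controls and 48.4 to 65.2 with IMQ, and 0 of 5 were called in skin by edgeR, by DESeq2 or at an unadjusted p under 0.05, where the sums overlapped (6.59 to 14.6 and 8.44 to 11.5). Of the B cell markers, *Cd79b* rose in skin (3.42), with sums of 0.352 to 0.937 and 4.69 to 5.25, and 0 of 5 were called in small intestine (11.6 to 21.1 and 15.3 to 18.6), where 1 was higher at an unadjusted p under 0.05 and by DESeq2. Of the T cell and eosinophil markers, 0 were called in either tissue by edgeR. At an unadjusted p under 0.05, 3 T cell markers were higher in skin (DESeq2 also called 3) and 1 was lower in small intestine (0 by DESeq2), and 0 eosinophil markers passed by either measure. T cell sums were 13.6 to 28.0 and 20.1 to 65.2 in skin and 16.9 to 25.9 and 14.7 to 15.3 in small intestine. Of the 5 eosinophil markers, 2 were tested in skin and 4 in small intestine. Eosinophil sums were 0.893 to 1.86 FPKM in skin controls and 0.449 to 1.11 in IMQ skin. In small intestine they were 1.40 to 3.32 in controls and 1.62 to 2.22 with IMQ, so they overlapped in both tissues. *Epx*, which defines eosinophils, was listed at 0 in all 5 IMQ libraries and so was not tested in either tissue. With sums of at most 3.32 FPKM in any library, these zeros lie near the floor. The sum of the 5 Paneth cell markers was 6346 to 7314 in small intestine controls and 4843 to 5193 with IMQ, without overlap. Of them 0 were called by edgeR, 3 were lower and 1 higher at an unadjusted p under 0.05, and DESeq2 called 2 lower (*Ang4* and *Itln1*) and 1 higher (*Mptx2*). In skin the sums of this list were 30.5, 99.6 and 34.6 in control replicates 1, 2 and 3 and at most 17.4 with IMQ. Replicate 2 is the library with intestinal transcripts. *Lyz1* was called lower in skin (-1.82, edgeR adjusted p = 0.0374), and its fit without replicate 2 is not given here. The part of these lists in the results was not tested.

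The genes with the pattern most like that of a receptor were found by the root-mean-square difference of centred log2 normalized counts over the 11 libraries and 18108 genes, as a description across libraries that share tissue and treatment. For *Tlr7* they were *Lgmn* (0.223), *LOC115486905* (0.242) and *Inpp5d* (0.260), against a median of 0.855 over all genes. For *Tlr8* they were *Ms4a4c* (0.420), *Abcg1* (0.439) and *Fcer1g* (0.441), against 1.71. For *Tlr9* they were *Cd180* (0.245), *Themis2* (0.321) and *Ptpn6* (0.325), against 1.18. Of the 9 other genes described here, *Myd88* came nearest to *Tlr7* (position 26) and *Unc93b1* nearest to *Tlr9* (position 44), whereas the nearest to *Tlr8* was *Tlr9* at position 114.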

How the data were processed

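RNA of skin and small intestine was sequenced from libraries of a stranded mRNA kit. Per the labels and the methods of the study, the authors trimmed reads (Trimmomatic), aligned them to mm10 with HISAT2 2.1.0 and quantified genes with StringTie 2.1.3b. They deposited whole-number read counts per gene without normalization, together with FPKM (scaled by the authors to transcript length and library size). The deposited TPM were not used. How reads with several matching genes were counted is not given in the sources used here. Samples were grouped by tissue and treatment from their labels.

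Genes counted at least 1 time in each library of a comparison were kept, normalized by relative log expression and tested with edgeR 4.0.16 (R 4.3.3) by the quasi-likelihood test, and p-values were adjusted by Benjamini-Hochberg over the whole table. An adjusted p under 0.05 was called. The SE was obtained from the log2 fold change and the square root of F. The interaction was fitted over all 11 libraries. The fits were tested on simulated data. Alternatives were TMM, DESeq2 1.42.0, the filterByExpr filter, no filter, limma 3.58.1 on log2(FPKM + 0.01) and log2(FPKM + 1), 1 fit of all libraries, and each library left out. Depth was 44995414 to 58526384 counts a library, and the few counts of *Tlr12* in skin limit its precision.

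All members are named. Of the pathway lists, called genes were named up to 8 a list. The members and lists were chosen with earlier results of these data known, and the study itself names *Tlr8* and *Tlr9* from these libraries, so their direction is no independent support. *Tasl* was not matched to the table by symbol. Positions are from RefSeq (GRCm38).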

Additional observations from a re-analysis of the deposited data

Results flagged for a closer look

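The change with IMQ differed between small intestine and skin, by the interaction term of edgeR's quasi-likelihood test over 11 libraries, for 3 of the 10 genes. The log2 fold change of *Tlr8* was 2.51 higher in small intestine (4.28 against 1.77), that of *Irf5* 1.37 higher (1.69 against 0.33), and that of *Tlr13* differed by -1.21 (1.16 against 2.37). The call of *Tlr13* was lost in 8 of 11 fits with 1 library left out and in 4 of 6 other settings, and that of *Irf5* in 1 of the 11. All IMQ libraries were above all control libraries of their tissue for these 3 genes.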

How the results depend on the processing

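No paired analysis was possible, because the sources used here do not say which skin and small intestine libraries came from the same mouse. The replicate numbers run from 1 to 11 and do not settle it. If some mice gave both tissues, the interaction test and the comparison of control tissues leave that pairing out. Of the 10 genes, 3 to 6 were called in skin with 1 library left out (3 without control replicate 1 or IMQ replicate 4, 5 or 6), 4 to 7 in small intestine (4 without IMQ replicate 10 or 11) and 1 to 3 in the interaction (1 without IMQ replicate 10 of small intestine), against 5, 7 and 3. A fit with 1 IMQ library of small intestine assumes that it varies like the controls. Under the other settings the counts were 4 to 6, 6 to 7 and 2 to 4, and 6 to 7 between control tissues. The pathway genes called were 5 to 29 in skin and 9 to 15 in small intestine with 1 library left out, and 32 and 25 with DESeq2. The cause was not tested.

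Directions turned only for genes that were not called: *Tlr3* in skin (-0.21 to 0.052 with 1 library left out), *Tlr11* in small intestine (-0.083 to 0.049), the interaction of *Tlr7* (-0.28 to 0.22), *Tlr11* (-0.030 to 0.95), *Myd88* (-0.14 to 0.021) and *Tlr12* (0.33 with limma on log2(FPKM + 1)), and between control tissues *Tlr9* (-0.17 to 0.52, and -0.27 and -0.15 with limma on log2(FPKM + 0.01) and log2(FPKM + 1)) and *Myd88* (-0.31 and -0.29 in these fits, where it was called).

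Over all genes DESeq2 called 3030 in skin, 1206 in small intestine and 1281 in the interaction, against 1382, 588 and 462. Limma on log2(FPKM + 1), which understates changes at low levels, called 894 in skin and gave *Tlr8* 2.75 in small intestine and 1.42 in the interaction. The counts with 1 library left out were 258 to 2521, 294 to 801 and 144 to 1072. With 2 IMQ libraries of small intestine, the smallest exact permutation p for a single value is 0.1, and the depth of *Tlr12* in skin limits its change.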
